A study of Rattus norvegicus with 6 samples.

Results

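Lipid-laden phagocytes are macrophages filled with lipid from the cells and membranes they have engulfed. The 10 genes described here encode surface receptors for lipids and lipoproteins (Trem2, Msr1 and Cd36), a lysosomal glycoprotein of these cells (Gpnmb), proteins that split, carry and store fatty acids (Lpl, Fabp5 and Plin2), and the cholesterol efflux machinery (Abca1, Abcg1 and Apoe). They were taken by exact gene symbol from 34106 genes in the deposited count data, and all 10 were found and passed the filter on low counts that left 15374 genes for testing. RNA-seq was run on whole pieces of the inferior alveolar nerve (IAN), a branch of the trigeminal nerve that carries sensation from the lower teeth and lip, taken from male Sprague-Dawley rats on day 14 after surgery. The 3 IANX samples came from rats in which the IAN and the mental nerve had been cut through, with a gap left between the stumps and no suture. The 3 Sham samples came from rats in which the cheek skin and the masseter muscle had been opened without cutting the nerve. Reaching the nerve for transection also required taking away the bone over it, and the sources used here do not state whether this was done in the sham operation. Both operations were done under isoflurane anaesthesia, and the rats were bought at 6 to 7 weeks of age.

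When a nerve is cut, the axons and myelin beyond the cut break down, and macrophages and Schwann cells clear the debris. Myelin is rich in cholesterol, which a mammalian cell cannot break down. A phagocyte therefore stores it as esters in lipid droplets or hands it through ABCA1 and ABCG1 to apolipoprotein particles, a programme that the liver X receptors (LXR) switch on when oxidised sterols build up. TREM2 senses lipids at the cell surface, and macrophages that carry TREM2, GPNMB, CD36 and lipoprotein lipase are known as lipid-associated or foam cells in fat tissue and atherosclerotic plaque.

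Total counts were 13988750 to 16440720 per sample in IANX and 14630127 to 17105402 in Sham. Pairs of Sham samples correlated at r = 0.968 to 0.974 across the tested genes in log2 CPM (counts scaled to a common library size), and IANX 1 correlated with IANX 3 at r = 0.959, whereas IANX 2 stood apart from both (r = 0.902 and 0.914). IANX 2 correlated with Sham 1, 2 and 3 at r = 0.894, 0.864 and 0.880, against 0.794 to 0.836 for IANX 1 and IANX 3 with Sham. The samples also differed in tissue content. Summed over 20 pan-macrophage markers, IANX 1, 2 and 3 had 1052, 2587 and 1182 CPM, against 711, 637 and 797 CPM for Sham 1, 2 and 3, so that IANX 2 held the most macrophage marker RNA. Of these markers 12 of 20 were called higher and none lower, and 5, 3 and 4 without Sham 1, Sham 2 and Sham 3. Schwann cell and myelin markers, which define a nerve, came to 4149 to 15676 CPM in IANX and 171780 to 225800 CPM in Sham. Odontoblast and ameloblast markers, which belong to the tooth, reached 56082 and 60764 CPM in IANX 1 and IANX 3 but 1950 CPM in IANX 2, against 129 to 876 CPM in Sham. Because these are bulk samples, fewer cells of a type and less RNA per cell cannot be told apart.

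Of the 10 genes, 3 rose after IANX (Gpnmb, Trem2 and Abca1), 1 fell (Lpl) and 6 did not pass the test, at an adjusted p under 0.05 in the quasi-likelihood test of edgeR over all tested genes. Of all tested genes, 34.4% passed, made up of 17.8% of tested genes called higher and 16.6% called lower in IANX, so the 4 calls were close in share to the background. The median log2 fold change of the 10 genes was 0.96, against 0.08 over all tested genes. Groups did not overlap for 6 genes, with Gpnmb, Trem2, Abca1 and Plin2 higher and Lpl and Abcg1 lower in every IANX sample than in any Sham sample, where 51.5% of all tested genes had groups that did not overlap. IANX 2 had the highest value of all 6 samples for 7 of the 10 genes, while it was highest for 19.5% of tested genes. Without Sham 1, Sham 2 or Sham 3 in turn, 2 genes were called higher, because Trem2 no longer passed. Without IANX 1 there were 4 called higher, with Plin2 added at an adjusted p of 0.0458. Without IANX 2, Abcg1 was also called lower.

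**Figure D1:**
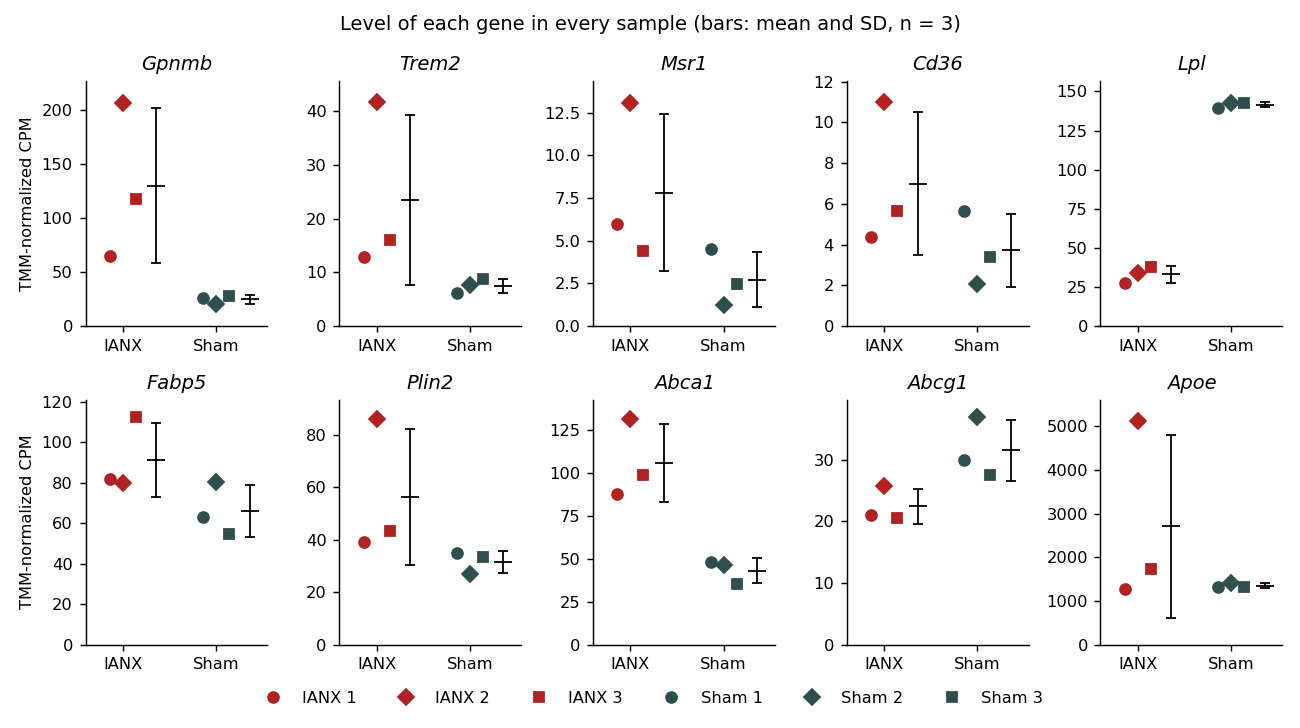
TMM-normalized CPM (linear axis from 0) of the 10 genes, with the 3 IANX samples left of the 3 Sham samples in every panel, each sample a point and the black bars the mean and SD of its group. Gpnmb, Trem2, Abca1 and Plin2 lay higher in every IANX sample than in any Sham sample, Lpl and Abcg1 lay lower, and IANX 2 was the highest sample for 7 genes.

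Gpnmb encodes a transmembrane glycoprotein of lysosomes and melanosomes that is strongly made by foam cells, osteoclasts and pigment cells (ENSRNOG00000008816, rn6 chromosome 4, 78694447 to 78715683). It measured 65.3, 207 and 118 CPM in IANX 1, 2 and 3, against 25.8, 19.99 and 28.2 CPM in Sham 1, 2 and 3. Every IANX sample was above every Sham sample, with IANX 2 the highest and IANX 1 the lowest of its group. The log2 fold change was 2.40 ± 0.41 (SE, n = 3 per group, edgeR adjusted p = 0.00531), a 5.27-fold higher level and the largest rise among the 10 genes. It kept its call in each of 15 alternative analyses, where its log2 fold change ran between 1.85 and 2.83. Against the summed pan-macrophage markers of the same sample, Gpnmb came to 6.21%, 8.01% and 9.98% in IANX and 3.63%, 3.14% and 3.54% in Sham, so the groups did not overlap on this scale either. Other cells that make Gpnmb also differed between the samples. The osteoclast marker sum was 389, 1284 and 662 CPM in IANX 1, 2 and 3, against 392, 136 and 298 CPM in Sham, with 3 of 6 tested markers called higher (Ctsk, Mmp9 and Atp6v0d2). Of the osteoclast fusion genes, Ocstamp was below the filter and Dcstamp is listed at 0 in every sample, as is the endothelial gene Cldn5. The melanocyte marker sum was 4.41, 4.96 and 40.5 CPM in IANX, against 3.24, 3.16 and 5.02 CPM in Sham. The part of either cell type in the Gpnmb result was not tested.

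Trem2 encodes a lipid-sensing receptor of macrophages, microglia and osteoclasts that signals through the adaptor TYROBP (ENSRNOG00000013578, chromosome 9, 14611561 to 14618013). It measured 12.8, 41.7 and 16.0 CPM in IANX, against 6.14, 7.58 and 8.79 CPM in Sham. The groups were apart, but IANX 2 was 2.90 times the mean of the other IANX samples. The log2 fold change was 1.65 ± 0.46 (SE, n = 3 per group, edgeR adjusted p = 0.0297), and without IANX 2 it was 0.90. The call was lost without Sham 1, Sham 2 or Sham 3 (adjusted p of 0.106, 0.111 and 0.0840). Tyrobp, the adaptor, measured 34.0, 79.4 and 48.2 CPM in IANX, against 28.4, 25.7 and 32.6 CPM in Sham, and missed the threshold (log2 fold change 0.90, adjusted p = 0.0545), which it passed without IANX 1 (1.14, adjusted p = 0.0196). The FPKM ratio of Trem2 to Tyrobp was 0.196, 0.274 and 0.173 in IANX and 0.113, 0.153 and 0.141 in Sham, so receptor transcript stood higher per adaptor transcript in every IANX sample (exact two-sided permutation test, p = 0.1, the smallest that 3 against 3 samples allow).

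The start regions of Gpnmb and Trem2, 2 of the genes called higher, are printed here from RefSeq (build GRCr8). RefSeq had an entry for 6 of the 10 genes (Gpnmb, Trem2, Plin2, Cd36, Abca1 and Apoe). Each runs 5′ to 3′ from 250 bases before to 50 bases after the transcript start, and capitals mark matches, on either strand, to short motifs. The AP-1 site was searched as TGANTCA, the E-boxes bound by MITF and TFE factors as CATGTG or in a second form as CACGTG, the core of the macrophage factor PU.1 as GAGGAA, the box of factor NF-Y as CCAAT, the TATA box as TATAAA, and the repeats bound by LXR and PPAR by the names DR4 and DR1.
Gpnmb (chr4:79340878-79341177, + strand): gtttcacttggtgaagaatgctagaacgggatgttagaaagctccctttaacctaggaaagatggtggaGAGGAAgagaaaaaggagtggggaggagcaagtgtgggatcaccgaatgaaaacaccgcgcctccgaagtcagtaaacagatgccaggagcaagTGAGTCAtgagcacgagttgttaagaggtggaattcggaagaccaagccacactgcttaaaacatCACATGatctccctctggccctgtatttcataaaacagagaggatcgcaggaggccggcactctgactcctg
Trem2 (chr9:20151730-20152029, - strand): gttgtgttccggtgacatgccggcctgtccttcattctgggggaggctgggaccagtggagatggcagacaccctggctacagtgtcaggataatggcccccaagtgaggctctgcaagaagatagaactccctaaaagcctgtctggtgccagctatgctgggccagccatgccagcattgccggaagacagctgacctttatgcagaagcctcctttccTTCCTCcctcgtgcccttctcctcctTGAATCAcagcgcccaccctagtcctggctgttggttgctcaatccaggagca
Both held 1 TGANTCA, which 7.33% of 33469 rat promoter windows of the same length held, and 1 GAGGAA, held by 27.6%. In Gpnmb the TGANTCA lay 87 to 81 bases before the start, and a CATGTG on the minus strand lay 22 to 17 bases before it, a motif in 14.0% of windows. In Trem2 the TGANTCA spanned the start, from position -3 to 4. No match overlapped another, and a match is a run of letters, not a measured site.

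Msr1, the class A scavenger receptor for modified lipoproteins (ENSRNOG00000012779, chromosome 16, 56813791 to 56900052), was a low transcript with 106, 240 and 74 raw counts in IANX and 65, 15 and 33 in Sham. This corresponds to 5.9995, 13.1 and 4.39 CPM in IANX, against 4.49, 1.25 and 2.44 CPM in Sham. IANX 3 lay just under Sham 1, so the groups overlapped. Its log2 fold change was 1.51 ± 0.58 (SE, n = 3 per group, edgeR adjusted p = 0.0786), and Msr1 passed with DESeq2 (adjusted p = 0.0382). It was 0.89 without IANX 2 (adjusted p = 0.201) and 1.16 without Sham 2 (adjusted p = 0.215). Cd36, the class B scavenger receptor and fatty acid translocase (ENSRNOG00000040108, chromosome 4, 14001761 to 14249718), measured 4.36, 11.003 and 5.63 CPM in IANX, against 5.66, 2.08 and 3.40 CPM in Sham. Its groups overlapped too, with a log2 fold change of 0.91 ± 0.49 (SE, n = 3 per group, edgeR adjusted p = 0.185), and 0.39 without IANX 2. The Cd36 values are uncertain because its gene model overlaps RGD1565355 and LOC685953 on the same strand, which held 133 and 25 counts over the 6 samples beside 527 for Cd36.

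Lpl encodes lipoprotein lipase, which splits the triglycerides of circulating lipoproteins and is made by macrophages, fat and muscle cells and by Schwann cells (ENSRNOG00000012181, chromosome 16, 22537056 to 22561496). It measured 27.4, 33.7 and 37.8 CPM in IANX, against 139.6, 142.7 and 142.6 CPM in Sham. The groups lay far apart, the Sham samples varied by a coefficient of variation of 1.24%, and IANX 2 lay between IANX 1 and IANX 3. IANX over Sham gave a log2 fold change of −2.10 ± 0.16 (SE, n = 3 per group, edgeR adjusted p = 0.000463), or 0.233 of the Sham level, and this lay between −2.21 and −1.65 in 15 alternatives, all called. Relative to the pan-macrophage marker sum, Lpl came to 2.60%, 1.304% and 3.19% in IANX and 19.6%, 22.4% and 17.9% in Sham. Of the Schwann cell and myelin markers, 9 of 10 were also called lower, with a median log2 fold change of −3.43 over the 10. Their sum was 4149, 15676 and 9037 CPM in IANX 1, 2 and 3. The FPKM ratio of Lpl to Sox10, the transcription factor that marks Schwann cells, was 0.425, 0.130 and 0.313 in IANX and 0.275, 0.216 and 0.281 in Sham, and these overlapped. The adipocyte marker sum was 27.2, 80.02 and 34.0 CPM in IANX, against 54.3, 28.7 and 40.5 CPM in Sham, which also overlapped. The part of Schwann cells or fat cells in the Lpl result was not tested.

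Fabp5 encodes a fatty acid carrier of epidermis, macrophages and Schwann cells (ENSRNOG00000049075, chromosome 2, 93981656 to 93985378). It measured 81.8, 79.7 and 112 CPM in IANX, against 62.8, 80.3 and 54.7 CPM in Sham. The groups overlapped through IANX 2 and Sham 2, and the log2 fold change was 0.47 ± 0.21 (SE, n = 3 per group, edgeR adjusted p = 0.117). Its highest sample was IANX 3, and IANX 2 was the lowest of its group. Epithelial markers, which belong to another cell type that makes Fabp5, were also highest there. Their sum was 1761, 40.4 and 3888 CPM in IANX 1, 2 and 3, against 391 to 476 CPM in Sham. Most of the Sham sum came from Cdh1 alone, at 372, 447 and 402 CPM, against 129, 19.3 and 319 CPM in IANX. The part of epithelial cells was not tested. Pmp2, the fatty acid binding protein of myelin, fell by 3.88 on the log2 scale (adjusted p = 0.00117) and was the 1 gene called of 3 tested in its list, where 1 was called higher without IANX 2. The FPKM ratio of Fabp5 to Pmp2 was 2.44, 0.808 and 2.17 in IANX and 0.0644, 0.0855 and 0.0691 in Sham. Fabp4, the fatty acid binding protein of fat cells and macrophages, did not pass (log2 fold change −0.52, adjusted p = 0.499).

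Plin2 encodes perilipin 2, the coat protein of lipid droplets in cells other than fat cells (ENSRNOG00000007060, chromosome 5, 104984414 to 105010857). It measured 39.1, 86.0 and 43.3 CPM in IANX, against 34.7, 26.7 and 33.2 CPM in Sham. The groups did not overlap, yet IANX 1 and IANX 3 together averaged 1.304 times the Sham mean while IANX 2 was 2.09 times the mean of the other IANX samples. The log2 fold change of 0.83 ± 0.31 (SE, n = 3 per group) did not pass (edgeR adjusted p = 0.0754), and it was 0.34 without IANX 2 (adjusted p = 0.125). Relative to the pan-macrophage marker sum, Plin2 was slightly lower in IANX, at 3.71%, 3.32% and 3.66%, against 4.89%, 4.19% and 4.17% in Sham, with a mean log2 difference of −0.31. That direction depended on the markers, since with 6 of them (Aif1, Cd14, Csf1r, Itgam, Mpeg1 and Laptm5) as the denominator the difference was 0.09. Among these 6, Laptm5 measured 62.3, 61.0 and 139.6 CPM in Sham 1, 2 and 3 and had a log2 fold change of −0.16. The part of this 1 marker in the shift was not tested. Plin3, the droplet coat protein found in most cells, fell by 0.46 on the log2 scale (adjusted p = 0.0372), a call lost when any 1 sample except IANX 2 was left out (adjusted p of 0.0849 to 0.126). The FPKM ratio of Plin2 to Plin3 was 0.499, 1.003 and 0.599 in IANX and 0.305, 0.253 and 0.319 in Sham, with no overlap.

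The 2 sterol transporters had log2 fold changes of opposite sign, and 1 of them passed the test. Abca1 loads cholesterol and phospholipid onto lipid-poor apolipoproteins (ENSRNOG00000018126, chromosome 5, 69857771 to 69983015). It measured 87.6, 131 and 98.6 CPM in IANX, against 48.2, 46.0 and 34.9 CPM in Sham. All IANX samples were above all Sham samples, and IANX 2 exceeded the mean of the others by a factor of 1.41, less than for Gpnmb, Trem2 or Plin2. The log2 fold change was 1.296 ± 0.21 (SE, n = 3 per group, edgeR adjusted p = 0.00447), and the call held in all 15 alternatives. Abcg1, which passes cholesterol to formed particles such as HDL (ENSRNOG00000001158, chromosome 20, 9743269 to 9840489), measured 21.1, 25.7 and 20.6 CPM in IANX, against 30.0, 37.1 and 27.6 CPM in Sham. Here every IANX sample was below every Sham sample, although the log2 fold change of −0.49 ± 0.18 (SE, n = 3 per group) did not pass (edgeR adjusted p = 0.0727). Without IANX 2 it was −0.63 and passed (adjusted p = 0.0240). Scaled by library sizes only, which raised the median of all genes by 0.45, the Abcg1 value was −0.04 (edgeR adjusted p = 0.864). The FPKM ratio of Abca1 to Abcg1 was 1.56, 1.92 and 1.80 in IANX and 0.605, 0.467 and 0.476 in Sham (mean log2 difference 1.78, exact two-sided permutation test, p = 0.1, adjusted p = 0.129 over 9 ratios).

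Abca1 is the best known LXR target among the 10 genes, and its start region is shown because it was the only one of the 6 with a match to the DR4 element.
Abca1 (chr5:72596424-72596723, - strand): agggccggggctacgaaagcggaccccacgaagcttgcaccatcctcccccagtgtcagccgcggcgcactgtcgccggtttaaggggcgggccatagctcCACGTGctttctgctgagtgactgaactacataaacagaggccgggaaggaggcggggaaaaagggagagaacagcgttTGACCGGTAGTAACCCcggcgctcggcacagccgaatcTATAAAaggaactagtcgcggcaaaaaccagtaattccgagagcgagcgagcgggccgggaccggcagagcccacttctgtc
The capitals mark, in order, CACGTG at 149 to 144 bases before the start, the DR4 element on the minus strand at 70 to 55 bases before it, and TATAAA at 32 to 27 bases before it. The DR4 pattern was widened after a narrower one matched none of the 6 promoters and was written with the known Abca1 element in view, so its finding here is a description. It matched 0.272% of the 33469 windows, CACGTG matched 6.42% and TATAAA 14.2%. Of the LXR genes, Nr1h2 (LXR beta) measured 86.8, 107 and 86.7 CPM in IANX, against 151, 192 and 164 CPM in Sham, and fell by 0.86 on the log2 scale (adjusted p = 0.00864). Nr1h3 (LXR alpha), the form enriched in macrophages, measured 12.3, 38.8 and 16.95 CPM in IANX, against 33.1, 39.8 and 35.8 CPM in Sham, and did not pass (adjusted p = 0.223) except without IANX 2, where it was −1.34 (adjusted p = 0.00169).

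Apoe, the apolipoprotein that carries cholesterol out of macrophages and glia (ENSRNOG00000018454, chromosome 1, 80612895 to 80617057), measured 1275.7, 5124.5 and 1729.7 CPM in IANX, against 1322, 1418 and 1310.4 CPM in Sham. On this TMM-normalized scale IANX 2 was 3.41 times the mean of IANX 1 and IANX 3, and IANX 1 lay below every Sham sample. The log2 fold change was 1.01 ± 0.51 (SE, n = 3 per group, edgeR adjusted p = 0.159), and it was 0.12 without IANX 2. Apoe took 0.1498%, 0.572% and 0.209% of all counts in IANX 1, 2 and 3, against 0.112%, 0.116% and 0.118% in Sham. By this share, which has no TMM normalization, IANX 1 lay above every Sham sample. The edgeR fit with library sizes only called Apoe higher (log2 fold change 1.43, adjusted p = 0.0426). Relative to the pan-macrophage marker sum Apoe came to 121%, 198% and 146% in IANX and 186%, 222% and 164% in Sham, where the groups overlapped.

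**Figure D2:**
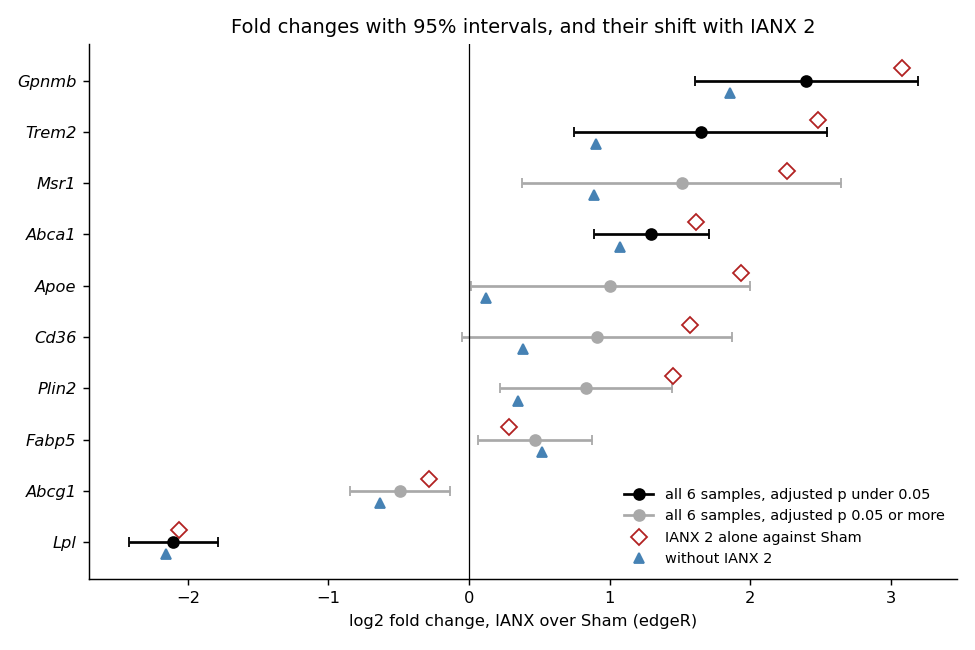
Log2 fold change (IANX over Sham) of each of the 10 genes from all 6 samples, with bars of 1.96 standard errors on either side. The same value is shown without IANX 2 and for IANX 2 alone against the 3 Sham samples. The figure names the bars 95% intervals, and they are not adjusted for the number of genes. They use a normal quantile, which with 3 samples per group makes them narrower than the edgeR test allows. Those of Apoe (0.013 to 1.997) and Fabp5 (0.062 to 0.876) lay wholly above no change, although their unadjusted edgeR p were 0.0851 and 0.0564. Gpnmb at 2.40, Trem2 at 1.65 and Abca1 at 1.296 were called higher and Lpl at −2.10 was called lower, and the Apoe value was 0.12 without IANX 2 and 1.93 with IANX 2 alone.

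Levels can be compared between genes only per transcript length, so the order of the 10 genes is given in FPKM. Apoe was first in both groups, at 1727 ± 1375 FPKM in IANX and 877 ± 43.9 FPKM in Sham (SD, n = 3), and made up 80.5% to 91.3% of the summed FPKM of the 10 genes in IANX samples and 82.5% to 83.8% in Sham samples. Fabp5 followed at 124 ± 23.3 FPKM in IANX and 92.2 ± 18.9 FPKM in Sham. The middle of the order differed. In IANX, Gpnmb (55.7 ± 31.7 FPKM), Plin2 (29.8 ± 14.4), Trem2 (20.1 ± 14.0), Abca1 (10.1 ± 2.35) and Lpl (8.81 ± 1.41) came next, and the sample ranges of each neighbouring pair among these 5 overlapped, although within each IANX sample the order ran Gpnmb, Plin2, Trem2, Abca1. In Sham, Lpl (39.0 ± 0.609 FPKM) was the third, apart from Fabp5 above it and from Plin2 (17.1 ± 2.22) below it, and Gpnmb (10.8 ± 1.79), Abcg1 (8.19 ± 1.33) and Trem2 (6.55 ± 1.14) came after Plin2, with Gpnmb overlapping Abcg1 and Abcg1 overlapping Trem2. Abca1 was the eighth in Sham, at 4.21 ± 0.707 FPKM, and Abcg1 was the eighth in IANX, at 5.68 ± 0.830 FPKM. Msr1 and Cd36 came last in both groups and overlapped each other.

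Members were next set against macrophage RNA, as a percent of the 20 pan-macrophage markers' summed CPM in the same sample. On this scale Gpnmb and Trem2 were the 2 members with every IANX sample above every Sham sample, and Lpl, Abcg1 and Plin2 were the 3 with every IANX sample below. Over all tested genes, 2.61% had groups apart with IANX higher and 55.2% had groups apart with IANX lower on this scale, 57.8% in all. The mean log2 difference was 1.21 for Gpnmb, 0.41 for Trem2, −0.31 for Plin2, −1.54 for Abcg1 and −3.17 for Lpl. Each had an exact two-sided permutation p of 0.1, the smallest possible for 3 against 3 samples, and an adjusted p of 0.2 over the 10 genes, so none could reach 0.05. Abca1, called higher in CPM, overlapped here at 8.33%, 5.06% and 8.34% in IANX and 6.78%, 7.21% and 4.38% in Sham. Trem2 lay between 1.22% and 1.61% in IANX and 0.865% and 1.19% in Sham, a narrow gap. Without IANX 2 the difference was 1.20 for Gpnmb and 0.30 for Trem2. The size of these differences depended on the markers. With the 6 named above, Laptm5 among them, as the denominator it was 1.61 for Gpnmb, 0.81 for Trem2, −1.14 for Abcg1 and −2.77 for Lpl. Plin2 changed sign to 0.09, and Apoe changed from −0.32 to 0.08.

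**Figure D3:**
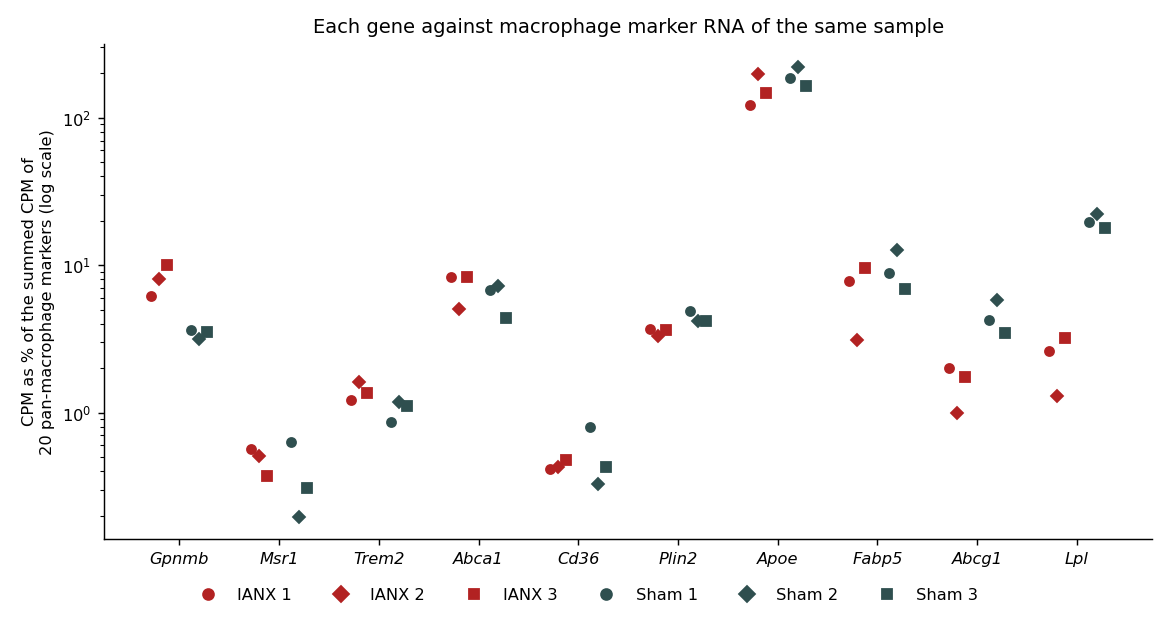
Each gene's CPM as a percent of the summed CPM of 20 pan-macrophage markers in the same sample (log axis), with IANX samples left of Sham samples, each sample a point. Gpnmb lay at 6.21% to 9.98% in IANX, against 3.14% to 3.63% in Sham, and Lpl at 1.304% to 3.19%, against 17.9% to 22.4%.

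The genes around the 10 were read from 11 pathway lists that held 129 genes. Of these, 127 were matched, 26 were below the filter and 101 were tested, with 20 called higher, 25 lower and 56 not passing, or 20 and 25 beside the 17.8% and 16.6% of the background. The count of genes called higher was 12, 5 and 7 without Sham 1, Sham 2 and Sham 3, and the count called lower was 39 without IANX 2. Scavenger receptors were the list with the most rises, with 6 of 10 tested genes higher, none lower and a median log2 fold change of 1.15. There 2 and 3 were called higher without Sham 2 and Sham 3, and 1 was called lower without IANX 2. Colec12, a scavenger receptor of vascular and stromal cells, measured 198, 248 and 199.96 CPM in IANX, against 47.8, 38.3 and 44.5 CPM in Sham (log2 fold change 2.31 ± 0.17, adjusted p = 0.000419). Scara3, which protects against oxidative stress, was 1.74 ± 0.32 higher (adjusted p = 0.00694). Both kept their call without any 1 sample. Stab1, a clearance receptor of macrophages and sinusoidal endothelium, was 0.95 higher (adjusted p = 0.0191) and lost its call without Sham 1 or Sham 2 (adjusted p of 0.0763 and 0.0919).

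In the list of cholesterol uptake, storage and lysosomal release, 5 of 14 tested genes rose and 4 fell. The count of rises was 3 without IANX 1, IANX 3 or Sham 1 and 0 without Sham 2 or Sham 3. The genes that rose included Soat1, which esterifies cholesterol for storage in droplets, at 30.4, 60.7 and 28.4 CPM in IANX, against 17.1, 10.8 and 15.0 CPM in Sham (log2 fold change 1.48, adjusted p = 0.0152). Lipa, the lysosomal acid lipase that frees cholesterol from its esters, measured 52.8, 139 and 54.5 CPM in IANX, against 24.2, 21.0 and 21.7 CPM in Sham (log2 fold change 1.88, adjusted p = 0.0108, and 1.23 without IANX 2). Both genes missed the threshold without Sham 2 or Sham 3 (adjusted p of 0.0754 and 0.0643 for Soat1, 0.0620 and 0.0550 for Lipa). The genes that fell included the sterol transfer genes Stard3 (−1.49, adjusted p = 0.00291), Npc1 (−0.97, adjusted p = 0.00497) and Stard4 (−1.39, adjusted p = 0.00767). These 3 calls held without any 1 sample. Npc2, the lysosomal partner of NPC1, did not pass (−0.64, adjusted p = 0.111) except without IANX 2 (−1.03, adjusted p = 0.00259).

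**Figure D4:**
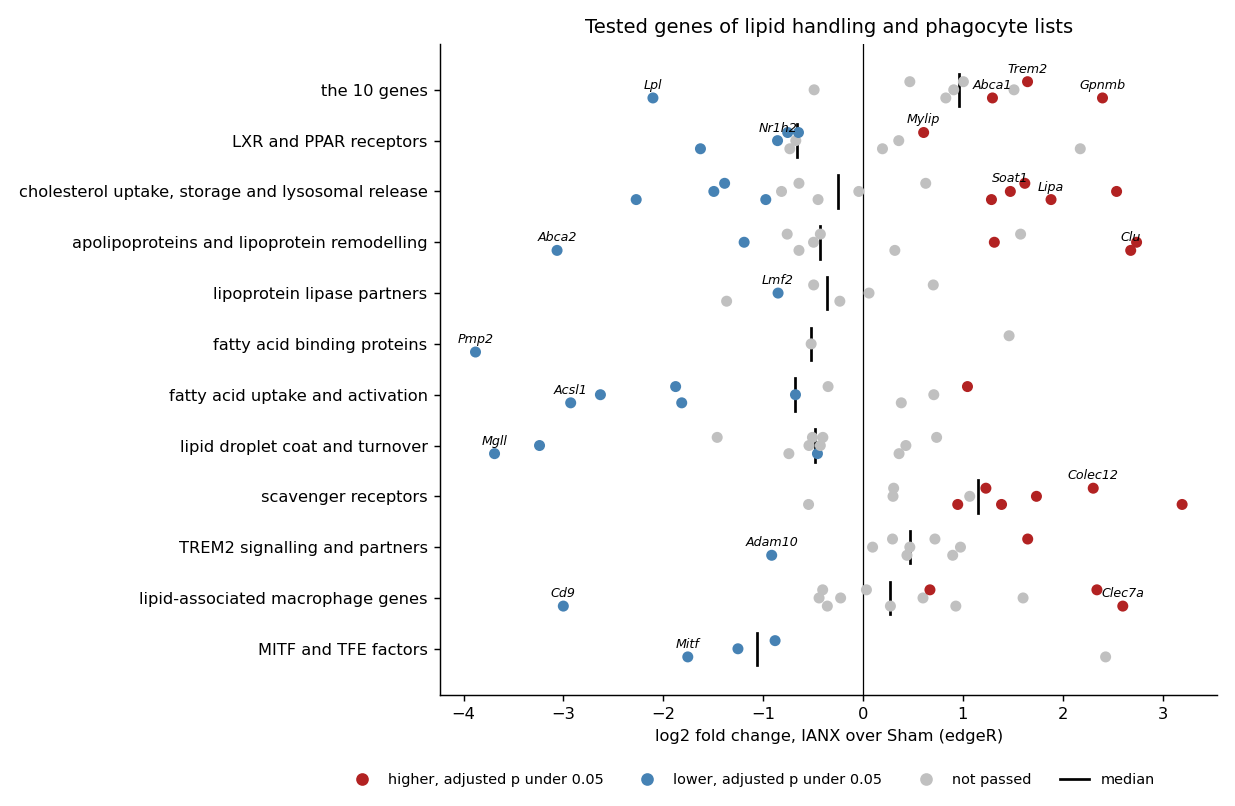
Log2 fold change (IANX over Sham) of each tested gene in the 11 pathway lists and of the 10 genes themselves, with genes called higher in red, called lower in blue and not passing in grey, and a black line at each median. Scavenger receptors had the highest median at 1.15 and MITF and TFE factors the lowest at −1.07, against 0.08 over all tested genes.

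Apolipoproteins and lipoprotein remodelling gave 3 rises and 2 falls among 11 tested genes, and 1 rise without Sham 1, Sham 2 or Sham 3. Clu, the secreted chaperone clusterin or apolipoprotein J, measured 1835, 831 and 2123 CPM in IANX, against 253, 307 and 187 CPM in Sham (log2 fold change 2.68 ± 0.39, adjusted p = 0.00326), and unlike Apoe it was lowest of the IANX samples in IANX 2. Pltp, the phospholipid transfer protein, was 1.32 higher (adjusted p = 0.0133) and lost its call without Sham 1, Sham 2 or Sham 3 (adjusted p of 0.0559, 0.0733 and 0.0574). Apoc1, the neighbour of Apoe that is made in macrophages, was a low transcript at 0.906, 6.86 and 1.78 CPM in IANX, against 0.552, 0.333 and 0.517 CPM in Sham (2.74, adjusted p = 0.0370), and without IANX 2 it was 1.46 (adjusted p = 0.0715). It was also lost without Sham 1, Sham 2 or Sham 3 (adjusted p of 0.102, 0.138 and 0.113). Abca2, a transporter of myelinating glia, and Lcat, which esterifies cholesterol on HDL, fell by 3.06 (adjusted p = 0.000533) and 1.19 (adjusted p = 0.0101). Of the 6 tested partners of lipoprotein lipase, Lmf2, a maturation factor of the enzyme's family, fell by 0.85 (adjusted p = 0.00871) as the only call, while 1 gene was called higher and 3 lower without IANX 2. Gpihbp1, the endothelial anchor that holds the lipase, was a low transcript at 1.70, 1.69 and 1.78 CPM in IANX, against 0.828, 3.58 and 0.591 CPM in Sham. Angptl4, an inhibitor of the lipase, measured 7.70, 8.99 and 8.24 CPM in IANX, against 4.56, 4.83 and 5.91 CPM in Sham, with groups apart and an adjusted p of 0.0597.

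Genes that take up, activate and turn over fatty acids were mostly lower in IANX among those called. Fatty acid uptake and activation had 1 of 9 tested genes higher and 5 lower, with Acsl1, which activates long-chain fatty acids, at 18.7, 20.2 and 17.9 CPM in IANX, against 157, 138 and 137 CPM in Sham (−2.93, adjusted p = 0.000209). The fatty acid transporters Slc27a4 and Slc27a1 fell by 2.63 (adjusted p = 0.000503) and 1.88 (adjusted p = 0.00199), and Cav1, the caveolar coat protein, by 1.82 (adjusted p = 0.000994). These calls held without any 1 sample, and 2 genes of the list were called higher without IANX 2. Lipid droplet coat and turnover had 3 of 12 lower and none higher (5 lower without IANX 2), with Mgll, the monoglyceride lipase, at −3.69 (adjusted p = 0.000533) and Dgat2, which makes triglyceride, at −3.24 (adjusted p = 0.000632). The median of that list was −0.48, opposite in sign to the 0.83 of Plin2. LXR and PPAR receptors with their partners had 4 of 10 lower (2 without Sham 3) and 1 higher, the falls including Rxrb, the heterodimer partner, at −0.75 (adjusted p = 0.00831). Mylip, a ubiquitin ligase and LXR target, was the one that rose (0.61, adjusted p = 0.0281), and its call was lost without IANX 1 or any 1 Sham sample (adjusted p of 0.0660 to 0.122).

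Lists written around phagocytes showed a mixed picture. Among 13 lipid-associated macrophage genes tested, 3 rose and 1 fell, and the count of rises was 1 without Sham 2. Clec7a, the receptor for fungal glucan, measured 10.3, 41.7 and 20.3 CPM in IANX, against 4.07, 3.08 and 4.73 CPM in Sham (log2 fold change 2.60 ± 0.51, adjusted p = 0.00893, and 0.0546 without Sham 2). Ctsl, a lysosomal protease, was 0.67 higher (adjusted p = 0.0306) but lost its call without IANX 1, Sham 2 or Sham 3 (adjusted p of 0.0762, 0.121 and 0.143). Lgals3, a lectin of activated macrophages, measured 128, 550.4 and 157 CPM in IANX, against 106, 91.1 and 77.7 CPM in Sham, and missed the threshold (1.60, adjusted p = 0.0544), which it passed without IANX 1 (adjusted p = 0.0245) and without IANX 2 (0.60, adjusted p = 0.0226). Spp1, or osteopontin, did not pass (−0.44, adjusted p = 0.294) except without IANX 2 (−0.85, adjusted p = 0.0107). Cd9, a tetraspanin of these cells and also of myelin, fell by 3.0005 (adjusted p = 0.00231), and without IANX 2 the list had 6 genes lower. Of the 9 tested TREM2 partners, Ms4a7, a membrane protein of macrophages, was called higher and Adam10, the protease that sheds TREM2, was called lower. The count called higher was 2 without IANX 1 and 0 without any other 1 sample, and the count called lower was 0 without IANX 1, Sham 1 or Sham 3. Of the 4 MITF and TFE factors 3 fell, while Tfec had a rise that missed the threshold (2.43, edgeR adjusted p = 0.0540). Tfec was a low transcript at 1.98, 3.27 and 1.90 CPM in IANX, against 0.759, 0 and 0.517 CPM in Sham. Mitf and Tfeb, factors known to drive lysosomal genes and in pigment cells Gpnmb, fell by 1.75 (adjusted p = 0.00123) and 1.25 (adjusted p = 0.00316).

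The genes whose pattern over the 6 samples was most like each member were found by the root mean square difference of centred log2 CPM among 11696 genes. For Gpnmb the nearest were Clec7a, at 0.118, then Gpr34, a receptor of microglia and macrophages, at 0.247, and LOC103692716. For Trem2 they were LOC690045, Htatip2 and RT1-Ba, the last an MHC class II chain of antigen-presenting cells, and for Plin2 they were Mtss1l, Csf1r and Cpne8, where Csf1r is the receptor for macrophage colony-stimulating factor. Serping1, the C1 inhibitor of complement, Abcb1a and Paqr3 were nearest to Apoe. Pde3b, Akr1b8 and Nt5c were nearest to Abca1, and Myl12b, Ndufa13 and Tfpt to Abcg1. For Lpl a transcript assembled by the authors came before Scamp5 and Enoph1, and for Msr1 another one came before Nkain1 and Mis12. Polk, RGD1563668 and Memo1 were nearest to Fabp5, and Lepr, Akr1c14 and Tmem100 to Cd36. Among the members themselves, Plin2 lay closest to Apoe, at 0.297, and then to Cd36, at 0.312.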

How the data were processed

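Bulk RNA-seq was analysed in 3 IANX and 3 Sham samples, grouped by their titles, since the treatment entry of the labels reads "transfection" for IANX. The authors prepared poly-A libraries with a kit that does not mark strand, aligned reads with HISAT2 2.0.5 to rn6, assembled further transcripts with StringTie 1.3.3b and counted reads with featureCounts 1.5.0-p3. The strand setting, the annotation release and how reads aligning to several places were counted were not given in the sources used here. The raw counts per gene and the FPKM were deposited by the authors, and the FPKM equal the count over gene length and 1 library size per sample, which is not the column total. The table also holds the authors' DESeq2 1.20.0 fold changes, p-values and group means, which were not used.

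Counts were filtered with filterByExpr of edgeR 4.0.16, normalized by TMM, and tested with its quasi-likelihood test (two-sided, condition only, Benjamini-Hochberg over 15374 genes, threshold 0.05) under R 4.3.3. SE is the log2 fold change over the square root of F. CPM are TMM-normalized. Alternatives were DESeq2 1.42.0, its size factors, library sizes only, no filter, only Ensembl genes (leaving out 1561 assembled by the authors), each sample left out, a replicate block, and limma 3.58.1 on log2(FPKM + 1) and log2(FPKM + 0.1) for genes reaching 1 FPKM in 3 samples, the first also unfiltered. A fit of IANX 2 by itself against Sham was added after seeing the data. The members and lists were chosen with earlier results of these data known. Besides the members, the text names up to 4 called genes per list with the lowest adjusted p and a mean of at least 5 CPM, 15 partner genes whatever their level or test result (Nr1h2, Nr1h3, Tyrobp, Gpihbp1, Angptl4, Apoc1, Soat1, Npc1, Npc2, Lipa, Plin3, Pmp2, Fabp4, Spp1 and Lgals3), and the 3 genes nearest in pattern to each member. Ms4a7, Cd63, Lgals1, Tfec and the single marker genes fall outside this rule and were chosen after their values were seen.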

Additional observations from a re-analysis of the deposited data

How the results depend on the processing

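Gpnmb, Lpl and Abca1 kept their direction and call in all 15 alternatives, with adjusted p of at most 0.0398, 0.00549 and 0.0297. Trem2 lost its call in 6, namely without each Sham sample and in the 3 limma fits (adjusted p of 0.0520, 0.0625 and 0.103). Scaling by library sizes only raised the median log2 fold change of all genes by 0.45. Called higher were then 5919 genes (80.1% of calls, against 51.7% with TMM), 7 members and 37 pathway genes, and called lower 1468 genes, against 2734, 3, 20 and 2550 with TMM. Relative to the median, the members' values moved little (2.29 for Gpnmb with library sizes and 2.32 with TMM, −0.57 with both for Abcg1). IANX 2 alone against Sham, whose spread comes from the Sham samples alone, called 6 members higher and gave 0.60 for Lgals1 (adjusted p = 0.0364), against −0.40 with all 6 samples. Without IANX 2, Cd63 was −0.50 (adjusted p = 0.0333), against 0.03 with all 6 and up to 0.25 with another sample left out. The cause was not tested. Leaving out each sample in turn gave 961 to 3712 genes higher, 1494 to 3504 lower, 2 to 4 members higher, 1 to 2 members lower, 5 to 23 pathway genes higher and 19 to 39 lower. The 101 pathway genes had 1597 values under the alternatives and the added fit of IANX 2 alone. Of these, 1424 kept direction and side of the threshold, 103 lost the call, 68 gained it and 2 reversed. With the replicate number as a block, 2175 genes were higher and 2299 lower, and the members' calls stayed at 3 higher and 1 lower. Deviations from the group mean correlated at 0.0858, −0.0144 and 0.0753 in same-numbered pairs of IANX and Sham samples. In the other pairs they correlated at −0.128 to 0.0465. With 3 samples per group these values cannot tell whether same-numbered samples shared more than a number. Cd36 and Msr1 were below the FPKM filter and were not tested in 2 of the limma fits. Msr1 and Cd36 had few counts, down to 15 and 25 in a Sham sample.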
